A study of Mus musculus with 2 samples.

Results

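The Hsd11b1 and Ccl11 fibroblasts of the old mouse heart were 200 cells of 1145 fibroblasts, in a table of 1426 sorted cells. All cells came from p16-FDR mice on a C57BL/6 background, aged 20 to 22 months. The p16-FDR construct carries an FLP recombinase and a diphtheria toxin receptor joined to the red fluorescent protein mCherry, and heart cells with mCherry were sorted by flow cytometry. There were 2 samples of 1 group, and no sample of mCherry-negative, young or unsorted cells was analysed here. Every share given is therefore a share of sorted cells. Fibroblasts were cells whose mean value of Dcn, Col1a2, Lum and Col3a1 was at least 1.5 on the deposited natural log scale and above the mean of the macrophage genes Lyz2, C1qa, C1qb and Fcer1g. Each fibroblast was scored by its mean z-score over 6 genes, Hsd11b1, Ccl11, Kcnip1, Blnk, Vtn and Fap, and the 200 highest were taken. The levels of these 6 genes chose the cells, so they are described below with no test.

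The cells fell into 2 libraries, called Heart1 and Heart2, with 0 cell barcodes in common. Members made up 4.37% of Heart1 fibroblasts (9 of 206, exact 95% binomial interval 2.02 to 8.13%) and 20.3% of Heart2 fibroblasts (191 of 939, 17.8 to 23.1%). The same score thus picked few cells in Heart1 and many in Heart2. The members had a median of 8531 unique molecular identifiers (UMIs, counted RNA molecules) per cell in Heart1 and 8140 in Heart2, against 11963 and 9060.5 in the other fibroblasts of these libraries. Their median mitochondrial share was 4.70% and 5.43%, against 3.30% and 5.13% in the other fibroblasts. The part of this depth and mitochondrial difference in the results below was not tested, except where values at equal depth are given. Levels are given in CPM, the UMIs of a gene summed over the cells of a set in a library, divided by all UMIs of those cells and scaled to a total of 1000000. In the 9 Heart1 members 1 UMI is worth 11.7 CPM, so single low values there rest on very few molecules. Intervals cover counting error only.

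Interstitial fibroblasts lie between the muscle fibres and capillaries of the heart, where they make and renew the extracellular matrix. HSD11B1, which resides in the endoplasmic reticulum, regenerates active glucocorticoid from its inactive keto form inside the cell. CCL11 (eotaxin) is a secreted chemokine that attracts eosinophils through the receptor CCR3. KCNIP1 is a calcium-binding subunit of voltage-gated potassium channels, BLNK is an adaptor protein of B cell receptor signalling that macrophages also use, vitronectin (Vtn) is an adhesive plasma and matrix glycoprotein bound by integrins, and FAP is a serine protease of the fibroblast surface.

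Outside the score, H2-Q10 leads the genes named as higher by its Heart2 difference. Its start region is printed here, with those of the gene that leads the score and of the score gene seen least often in the other fibroblasts. They run from 250 bases before to 50 bases after the start of transcription, 5′ to 3′ on the gene's strand, from RefSeq on the build GRCm38.p6. Hsd11b1 is at chr1:193242311-193242610 on the minus strand, Vtn at chr11:78498870-78499169 on the plus strand, and H2-Q10, a class I major histocompatibility gene, at chr17:35469839-35470138 on the plus strand. The Hsd11b1 window lies inside the gene, whose outer start on the minus strand is at 193264075, so that start is outside the window. Capitals mark matches to the motifs named below.
Hsd11b1: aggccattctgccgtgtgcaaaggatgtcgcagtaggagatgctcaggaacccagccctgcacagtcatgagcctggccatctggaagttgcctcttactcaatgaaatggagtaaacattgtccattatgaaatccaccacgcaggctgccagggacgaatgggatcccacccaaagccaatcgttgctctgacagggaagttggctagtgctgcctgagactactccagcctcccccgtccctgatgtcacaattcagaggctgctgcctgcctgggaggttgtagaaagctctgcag
Vtn: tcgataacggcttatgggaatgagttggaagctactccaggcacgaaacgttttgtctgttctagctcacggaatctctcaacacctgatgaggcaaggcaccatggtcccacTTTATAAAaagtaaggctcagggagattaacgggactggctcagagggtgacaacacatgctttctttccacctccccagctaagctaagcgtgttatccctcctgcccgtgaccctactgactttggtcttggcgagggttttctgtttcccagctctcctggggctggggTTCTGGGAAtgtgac
H2-Q10: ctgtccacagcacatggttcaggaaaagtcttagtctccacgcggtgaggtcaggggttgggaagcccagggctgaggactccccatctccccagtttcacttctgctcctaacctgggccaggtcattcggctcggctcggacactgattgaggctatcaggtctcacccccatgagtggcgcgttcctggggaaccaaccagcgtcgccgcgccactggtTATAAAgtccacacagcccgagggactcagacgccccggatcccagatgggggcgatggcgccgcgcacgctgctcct
Motifs of 6 kinds were searched on both strands. The full glucocorticoid response element (AGAACA and TGTTCT set 3 bases apart) occurs in 0.00913% of the 32851 promoter windows, the consensus NF-kB site in 0.155%, the C/EBP site TTGCNNAA in 10.8%, the STAT site (TTC and GAA set 3 or 4 bases apart) in 14.6%, the AP-1 site TGANTCA in 7.81% and the TATA box TATAAA in 13.6%. None of these letters is in the printed Hsd11b1 window, which does not cover the outer start of the gene. The Vtn window holds TATAAA 135 bases before the start, overlapping a match on the other strand, and a STAT match 35 bases after it. The H2-Q10 window holds TATAAA 28 bases before the start. These are matches of letters and say nothing of which factor binds.

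Hsd11b1 (chr1:193221634-193264075, protein-coding, GENCODE on GRCm38) was present in nearly every member. Its level was 1091 CPM in Heart1 members and 1354 CPM in Heart2 members, against 146 and 429 CPM in the other fibroblasts. A UMI was seen in 9 of 9 and 190 of 191 members, so cells of both libraries carried it throughout, while 45.2% and 78.7% of the other fibroblasts did too. Ccl11 (chr11:82057823-82062955) had 727 and 811 CPM in members, against 17.8 and 79.2 CPM in the other fibroblasts. It was seen in 7 of 9 and 102 of 191 members, so the name of the set describes only a part of its Heart2 cells for this gene. Fap (chr2:62500943-62574075) had 188 and 239.5 CPM in members, against 16.6 and 34.9 CPM in the others, with a UMI in 6 of 9 and 150 of 191 members.

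Blnk (chr19:40928927-40994535) had 106 and 157.5 CPM in members, against 9.83 and 18.7 CPM in the other fibroblasts. Cells that passed the mirror-image macrophage gate (37 in Heart1 and 210 in Heart2) had 118 and 120 CPM of it, which is close to the members' level. The other 5 genes of the score were at or near 0 in those macrophage-gated cells, where Hsd11b1 was found in 0 of 37 and 3 of 210 cells and Ccl11 in 0 of 37 and 0 of 210. At a limit of 3 counts, 0 of 210 allows at most 1.43% of these cells to hold a UMI, at a median of 9642 UMIs per cell in this gate, and sets no limit on cells expressing the gene. Kcnip1 (chr11:33629339-33993152) had 23.5 and 67.8 CPM in members, against 0.378 and 1.45 CPM in the other fibroblasts, and was seen in 1 of 9 and 81 of 191 members. Vtn (chr11:78499091-78502324) had 70.4 and 53.6 CPM in members, against 0 and 0.145 CPM in the others. It was the rarest gene of the rule, with a UMI in 1 of 9 members of Heart1, which held 6 UMIs, and in 29 of 191 members of Heart2. Its near absence from the other fibroblasts follows in part from the score. With 200 cells chosen by Hsd11b1, Ccl11 and Kcnip1 alone, the Heart2 fibroblasts not chosen held 15 Vtn UMIs in 6 of 749 cells.

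**Figure D1:**
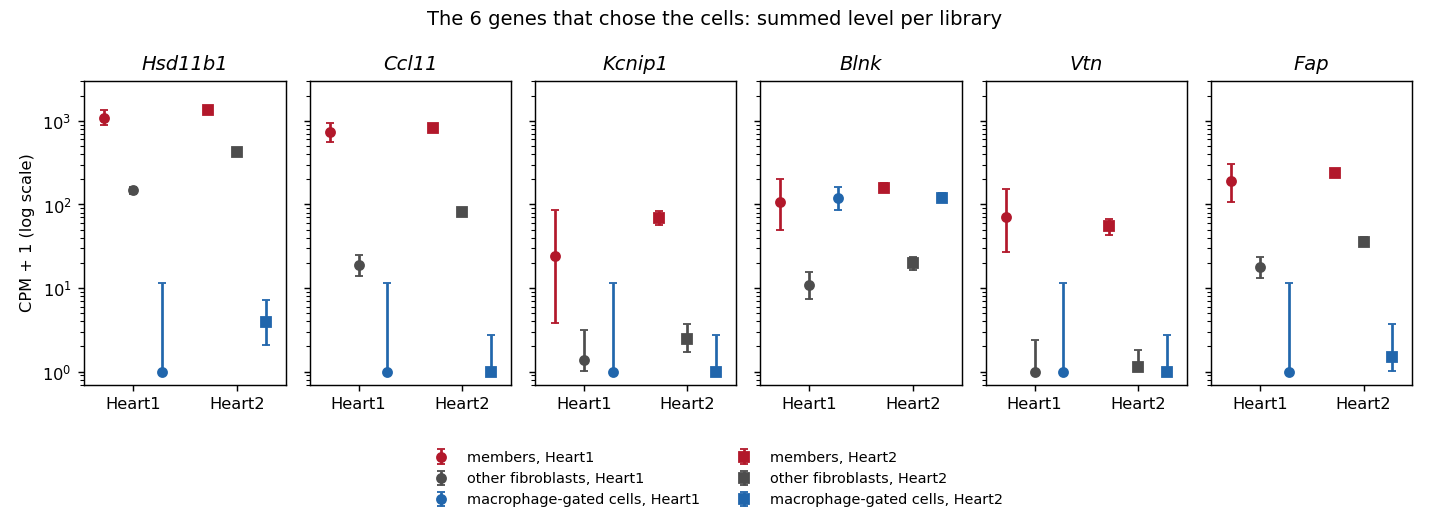
Summed level (CPM + 1, log axis) of the 6 genes used to choose the cells in members, other fibroblasts and macrophage-gated cells of each library, with exact 95% Poisson intervals. Members lie above the other fibroblasts for every gene and library, and Blnk is the only gene of the 6 that macrophage-gated cells hold at a level near that of members (118 and 120 CPM).

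Members differed in how many of the 6 genes they carried. In Heart2, 8 members held 2 of the genes, 93 held 3, 62 held 4, 22 held 5 and 6 held all 6. In Heart1, 1 member held 2, 4 held 3 and 4 held 4. In Heart2, 77 of the 102 members with Ccl11 also held Fap, and 63 held Blnk. The score itself is continuous: the lowest member had 0.463 and the highest other fibroblast 0.46. Within 0.1 of that border lay 22 members and 31 other fibroblasts, so the set is the upper end of a continuous range.

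Rule genes left out of a choice were also higher in the cells chosen. When 200 fibroblasts were chosen by Blnk, Vtn and Fap alone, Hsd11b1 was at 608 and 1254 CPM in the chosen cells of Heart1 and Heart2, against 157 and 454 CPM in the fibroblasts not chosen. Ccl11 was at 259 and 496 CPM in those chosen cells, against 30.6 and 151 CPM. When 200 were chosen by Hsd11b1, Ccl11 and Kcnip1 alone, Fap was at 81.1 and 169 CPM in the chosen cells, against 19.2 and 49.96 CPM, and Blnk at 73.0 and 106 CPM, against 9.98 and 29.7 CPM. These values are descriptions, since all 6 genes entered the definition of the set.

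The set was then laid beside lists of cell type markers. The fibroblast list holds the gate genes Dcn, Col1a2, Lum and Col3a1, and the macrophage list holds Lyz2, C1qa, C1qb and Fcer1g. Every member passed that gate, so the sums of these lists follow in part from the choice and are no independent check. The 9 general fibroblast markers summed to 55410 and 60100 CPM in members, against 47470 and 59260 CPM in the other fibroblasts, and none was at 0. The 12 macrophage markers summed to 23.5 and 40.02 CPM in members, against 117 and 32.9 CPM in the others, and 11 of 12 were at 0 in the Heart1 members. Of 6 B cell markers, 6 were at 0 in Heart1 members and 5 in Heart2 members, so the defining genes of the cell type best known for Blnk were at or near 0. The 8 pericyte markers stood out, with sums of 809.5 and 516 CPM in members, against 266 and 191 CPM in the other fibroblasts. Ndufa4l2, a mitochondrial protein known from hypoxic cells and pericytes, carried most of this sum with 540 and 338 CPM in members, against 89.3 and 137 CPM in the others.

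The pericyte genes did not all go the same way. Rgs5 was at 0 and 0.645 CPM in members, against 26.9 and 0.724 CPM in the other fibroblasts, and Cspg4 at 0 and 0.645 CPM, against 9.08 and 2.03 CPM. Notch3, a Notch receptor of mural cells, had 23.5 and 50.4 CPM in members, against 5.30 and 12.6 CPM in the others, and the channel gene Kcnj8 35.2 and 36.2 CPM, against 25.3 and 10.4 CPM. Cox4i2 had 176 CPM in Heart1 members, all 15 UMIs in 1 cell, and 37.4 CPM in Heart2 members, against 66.2 and 12.8 CPM. Abcc9 had 35.2 and 48.4 CPM in members, against 43.9 and 14.9 CPM, and Higd1b 0 and 5.16 CPM, against 0 and 0.435 CPM. In Heart2, Kcnj8, Abcc9, Higd1b, Notch3, Cox4i2 and Ndufa4l2 were thus higher in members, while Rgs5 and Cspg4 were near 0. Rgs5 was as low in the other Heart2 fibroblasts, so it does not set the members apart there. In Heart1 members Notch3 rests on 2 UMIs in 1 cell and Kcnj8 on 3 UMIs. The 0 of Rgs5 there allows up to 43.3 CPM, so apart from Ndufa4l2 no direction is read in Heart1.

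On the transcriptome at large the comparison was made within each library, without the 6 rule genes and the 8 gate genes. Of 8532 genes with a mean of at least 10 CPM, 158 were at least 1.5-fold higher in members in both libraries (1.85%) and 204 at least 1.5-fold lower (2.39%), on the log2(CPM + 5) scale, which understates the change of low genes. With 9 Heart1 members no test was run on the members themselves. A within-library set was tested instead, made of the same share of each library by z-scores taken within it, 36 of 206 Heart1 fibroblasts and 164 of 939 Heart2 fibroblasts. It holds 173 of the 200 members, all 9 of Heart1 and 164 of Heart2. limma with library as a block called 89 genes higher (1.04%) and 138 lower (1.61%) of 8575 at a Benjamini-Hochberg adjusted p under 0.05, and 1019 genes had an unadjusted p under 0.05. The shares of 1.04% and 1.61% are the background for the counts of every gene list below. A single call in a list is not read as a result about that list.

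With 4 sums and the library term, 1 degree of freedom is left for each gene, to which limma adds 9.68 from all genes. The p-values therefore rest mostly on the pooled spread. Without the library block it called 0 genes in either direction, with 385 at an unadjusted p under 0.05. With median-ratio scaling in place of scaling to the total, 45 of the 227 called genes were still called, and all 227 kept their sign. Among the genes picked by the naming rule, rather than only listed with their group, the calls that held under that scaling are those of Ifitm1, Ndufa4l2, Col5a3 and Kcnk2 in the higher direction and of Cilp, Comp, Dkk3, Fn1, Mfap4, Mgll, Mustn1, Nbl1, Nr4a1, Postn, Prg4, Thbs4, Timp1 and Tmem100 in the lower. With every cell thinned to 3000 UMIs, 128 of 222 calls remained and 221 kept their sign, and Adap2, Angptl2, Fgf18, Heyl, Maff, Mgll, Nkd2, Plau, Podn and Tgfb1 were among the genes no longer called. Without fibroblasts holding a UMI of Wif1, Thbs4 or Comp, 130 of 204 remained, and Adap2, Gadd45g, H2-Q7, Maff, Meox1, Podn, Prss23 and Tgfb1 were among those no longer called. All 227 genes had the same sign in the Heart2 members, and 12 had the opposite sign in the 9 Heart1 members.

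**Figure D2:**
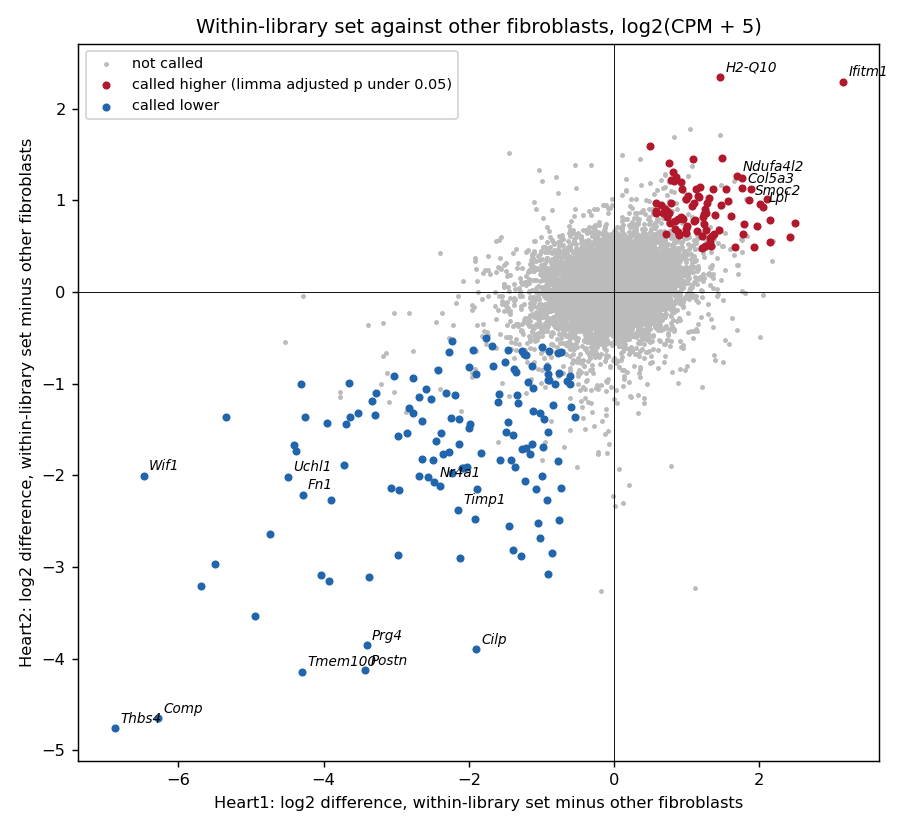
Difference in log2(CPM + 5) between the within-library set and the other fibroblasts, Heart1 on the x axis and Heart2 on the y axis, for the 8575 genes tested. The 89 genes called higher (red) and the 138 called lower (blue) lie on the same side in both libraries, and Thbs4 and Comp lie farthest at the lower left.

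Basement membrane genes were the group with most higher genes. Of 25 tested, 11 rose and 0 fell in the within-library set by limma, with a median log2 difference of 0.734, against 0.0247 over all genes tested. The risen genes encode collagen IV (Col4a1, Col4a2), laminin chains (Lama2, Lama4, Lamb1), perlecan (Hspg2), collagens XV and VI (Col15a1, Col6a3, Col6a6), the matricellular protein Smoc2 and peroxidasin (Pxdn), which crosslinks collagen IV. With median-ratio scaling 0 of the 25 were called, with a median of 0.684. Without fibroblasts holding a UMI of Wif1, Thbs4 or Comp, 7 of the 25 were called and the median was 0.472.

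Smoc2 had 1349 CPM in Heart1 members and 2702 CPM in Heart2 members, against 576 and 1359 CPM in the other fibroblasts. It was seen in 99.5% of Heart2 members. Col4a1 had 598 and 951 CPM in members, against 371 and 456 CPM in the others, and limma gave a log2 difference of 1.004 ± 0.159 (SE, adjusted p = 0.00897) for the within-library set. Members were above the other fibroblasts in both libraries for both genes. Col6a3 had 622 and 696.5 CPM in members, against 252 and 343.5 CPM in the others. Lamb1 had 512 and 1000 CPM in the within-library set, against 115 and 491 CPM in the other fibroblasts (limma log2 difference 1.56 ± 0.23, adjusted p = 0.00597).

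Among the 12 genes named for the largest higher Heart2 difference, Ifitm1, an interferon-inducible membrane protein, had 106 and 148.5 CPM in members, against 9.46 and 24.8 CPM in the other fibroblasts. The limma log2 difference of the within-library set was 2.73 ± 0.25 (adjusted p = 2.23e-04). It was seen in 5 of 9 Heart1 members and 36.7% of Heart2 members, so most Heart2 members showed no UMI. H2-Q10, known as a secreted class I molecule of liver, had 46.9 and 62.6 CPM in members, against 1.51 and 7.39 CPM in the others (1.91 ± 0.34, adjusted p = 0.0180). Genes of the H2-Q group are near-identical copies, so the counting could have split reads between them, and the values of H2-Q10 and H2-Q7 are uncertain. Of 16 class I and peptide-loading genes tested 1 rose, H2-Q7, and 0 fell. Of 28 interferon-stimulated genes 1 rose, Lgals3bp, and 0 fell.

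Col5a3, the alpha 3 chain of collagen V, had 516 and 562 CPM in members, against 94.6 and 252 CPM in the other fibroblasts (limma log2 difference 1.45 ± 0.19, adjusted p = 0.00241). The secreted serine protease gene Htra1 had 399 and 678 CPM in members, against 148 and 285 CPM in the others. Prss23, another secreted serine protease, had 364 and 428 CPM, against 141 and 156 CPM, and Plau, the urokinase plasminogen activator, 46.9 and 49.1 CPM, against 4.92 and 19.8 CPM. Members were above the others in both libraries for these proteases. Of 38 matrix proteases and inhibitors tested 4 rose (Adamts5, Htra1, Plau, Prss23) and 4 fell (Timp1, Adamtsl2, Cpe, Cpxm2). Timp1, an inhibitor of matrix metalloproteinases, had 82.1 and 19.4 CPM in members, against 711.5 and 118 CPM in the other fibroblasts, with a limma log2 difference of -2.26 ± 0.17 (adjusted p = 4.5e-05).

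Ndufa4l2 rose by a limma log2 difference of 1.48 ± 0.17 (adjusted p = 0.00135). The sialyltransferase gene St6galnac2, the ADP-ribosylation factor GTPase-activating gene Adap2 and D630003M21Rik also rose, by log2 differences of 1.02 to 1.51. Kcnk2, a background potassium channel, had 223 and 230.5 CPM in members, against 77.9 and 104 CPM in the others (1.13 ± 0.16, adjusted p = 0.00597). It was the 1 gene called higher of 7 tested in the channel list drawn up for Kcnip1, and 0 fell. A place in that list does not make it a partner of KCNIP1. Of 7 tested signalling partners of Blnk 0 rose and 0 fell, with 18 integrins and vitronectin partners likewise at 0 and 0.

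The glucocorticoid list held the enzyme that serves HSD11B1. H6pd, which makes NADPH for HSD11B1 inside the endoplasmic reticulum, had 82.1 and 109 CPM in members, against 45.8 and 65.5 CPM in the other fibroblasts (limma log2 difference 0.97 ± 0.20, adjusted p = 0.0315). Its call was lost with median-ratio scaling, and 44.4% of Heart1 members held a UMI of it, against 43.65% of the other Heart1 fibroblasts. H6pd was the 1 gene of 19 tested in glucocorticoid metabolism and response to rise, and 0 fell, where 1.04% rose over all 8575 genes tested. The list's median log2 difference was 0.149. Of 19 chemokines and cytokines 2 rose, Cxcl16 and Ccl2, and 0 fell. Cxcl16, a chemokine with a membrane-bound form, had 293 and 234 CPM in members, against 124 and 130 CPM in the others. Ccl2, which attracts monocytes, rose by 1.05 ± 0.23 (adjusted p = 0.0414) in the within-library set, but the members differed by library, with 0 and 414 CPM, against 216 and 158 CPM in the other fibroblasts.

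**Figure D3:**
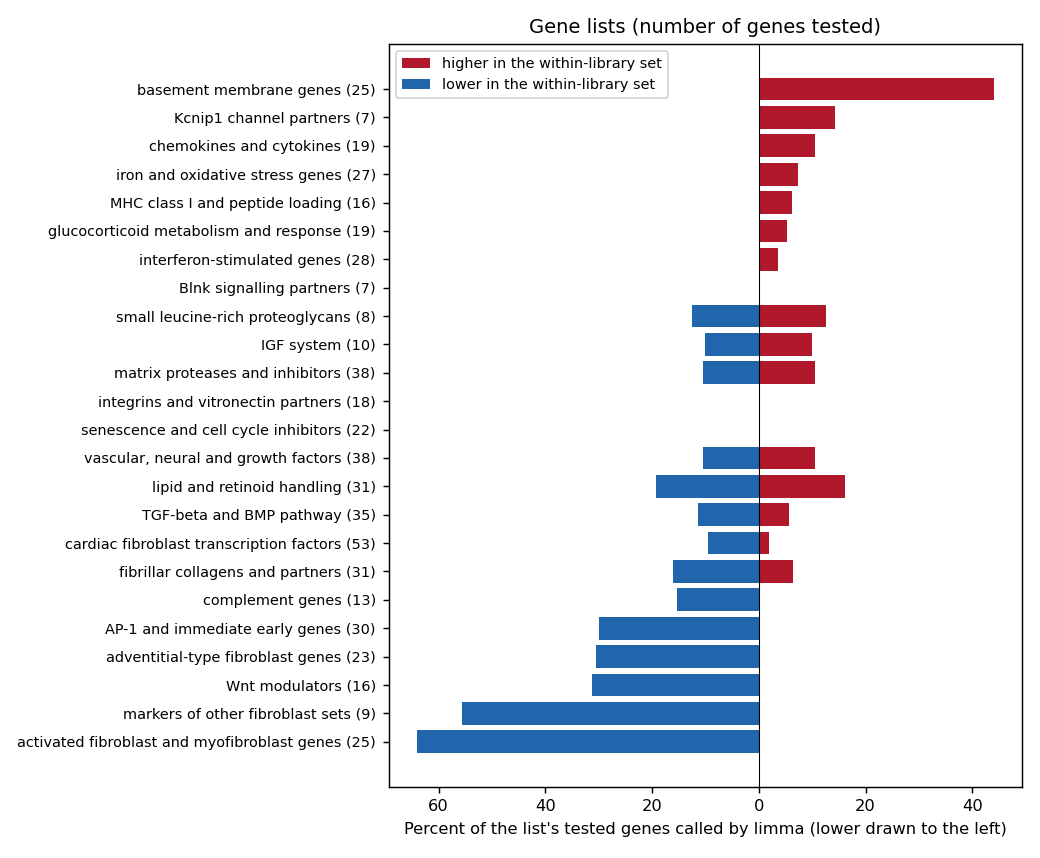
Percent of the tested genes of each list that limma called higher (right, red) or lower (left, blue) in the within-library set, with the number tested in brackets. Basement membrane genes stand at the top with 11 of 25 higher, and activated fibroblast and myofibroblast genes at the bottom with 16 of 25 lower.

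Genes of the lipid and retinoid handling list moved in both directions. Of 31 tested, 5 rose (Lpl, Rarres2, Adh1, Plin2, Abca8a) and 6 fell (Aldh1a3, Rbp4, Dhrs3, Inmt, Ptgs2, Mgll). Lpl, lipoprotein lipase, had 1255 and 1843 CPM in members, against 309 and 929 CPM in the other fibroblasts (limma log2 difference 1.49 ± 0.24, adjusted p = 0.00913). Mgll, monoacylglycerol lipase, had 0 and 13.6 CPM in members, against 67.3 and 36.4 CPM in the others. Heyl, a transcriptional repressor known as a Notch target, had 176 and 217 CPM in members, against 57.5 and 104 CPM, and was the 1 gene to rise of 53 tested in the list of cardiac fibroblast transcription factors. Meox1, a homeobox factor tied to fibroblast activation in mice, was among the 5 of that list that fell, with 188 and 126.5 CPM in members, against 535 and 206 CPM.

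Against the other fibroblasts as a whole, activated fibroblast and myofibroblast genes were the group with most lower genes. Of 25 tested, 16 fell and 0 rose by limma, with a median log2 difference of -1.97. Periostin (Postn) had 317 and 19.4 CPM in members, against 2015 and 342 CPM in the other fibroblasts (limma log2 difference -3.78 ± 0.19, adjusted p = 5.63e-06). Fibronectin (Fn1) had 11.7 and 9.04 CPM in members, against 294 and 69.2 CPM. Cilp, a matrix protein of cartilage and scar, had 58.7 and 7.10 CPM in members, against 902 and 176 CPM. All 3 genes were lower in members in both libraries, although Postn was still seen in 2 of 9 and 14 of 191 members.

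Comp and Thbs4, both of the thrombospondin family, had 0 UMIs in the 200 members. The other fibroblasts had 844 and 124 CPM of Comp and 512 and 134 CPM of Thbs4 in Heart1 and Heart2. Set against a floor of 3 UMIs per library, Thbs4 in the other fibroblasts was 14.5-fold that floor in Heart1 and 69.4-fold in Heart2. These ratios count UMIs, which came from only 14.7% of the other Heart1 fibroblasts and 2.14% of the other Heart2 fibroblasts. With so few cells holding Thbs4, the ratios are not lower limits of a difference. With median-ratio scaling 9 of the 25 genes of the list were called lower and 0 higher. Without fibroblasts holding a UMI of Wif1, Thbs4 or Comp, 18 were tested, 6 fell and the median was -1.1, so the median difference was smaller with those cells left out. The 3 smooth muscle markers in the table summed to 35.2 and 19.4 CPM in members, against 244 and 48.4 CPM in the other fibroblasts, and their part in this group was not tested.

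Adventitial-type genes, which mark fibroblasts around vessels, had 7 of 23 lower and 0 higher (Sema3c, Cd248, Mfap5, Efhd1, Anxa3, Limch1, Uchl1), with a median of -0.678, and 0 called with median-ratio scaling. Sema3c, a secreted guidance protein, had 0 and 3.23 CPM in members, against 43.5 and 52.7 CPM in the other fibroblasts. Uchl1, a deubiquitinase, had 0 and 5.16 CPM in members, against 94.2 and 37.5 CPM. Pi16 itself had 1009 and 984 CPM in members, against 1637 and 1729 CPM, and did not pass limma (log2 difference -0.67 ± 0.18, adjusted p = 0.0989). The lubricating proteoglycan gene Prg4 had 0 UMIs in members, against 415 and 69.4 CPM in the others. Tmem100, a membrane protein, had 0 and 2.58 CPM in members, against 211 and 99.4 CPM, with a limma log2 difference of -4.22 ± 0.22 (adjusted p = 5.63e-06). Myoc, which encodes the secreted protein myocilin, had 35.2 and 25.2 CPM in members, against 157 and 222 CPM.

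Of 16 Wnt modulators tested 5 fell (Wif1, Sfrp2, Dkk3, Rspo3, Nkd2) and 0 rose. Dkk3, of the Dickkopf family, had 23.5 and 8.39 CPM in members, against 571 and 90.8 CPM in the other fibroblasts (limma log2 difference -3.56 ± 0.23, adjusted p = 1.98e-05). Of 30 AP-1 and immediate early genes 9 fell (Fos, Egr1, Atf3, Nr4a1, Ier2, Ier3, Zfp36, Maff, Gadd45g) and 0 rose, while 2 were called with median-ratio scaling. These genes are known to respond to cell dissociation as well as to growth signals. Nr4a1, an immediate early nuclear receptor, had 11.7 and 5.16 CPM in members, against 144 and 35.9 CPM. Without fibroblasts holding a UMI of Wif1, Thbs4 or Comp, 3 of 28 immediate early genes were called lower, with a median of -0.171, and 3 of 15 Wnt modulators, whose median was then 0.0112, of the other sign.

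The remaining lists were mixed or quiet by limma. Of 31 fibrillar collagen genes and partners 2 rose (Col5a3, Plod1) and 5 fell (Col12a1, Col14a1, Fn1, Mfap4, Mfap5), and of 8 small leucine-rich proteoglycans 1 rose (Podn) and 1 fell (Fmod). Of 35 genes of the TGF-beta and BMP pathway 2 rose (Inhbb, Htra1) and 4 fell (Tgfb1, Ltbp2, Nbl1, Id4). Of 38 vascular, neural and growth factors 4 rose (Angptl2, Thbs2, Adm, Nrp1) and 4 fell (Pdgfa, Fgf18, Sema3c, Sema3d). Complement had 0 higher and 2 lower of 13 (C4b, Clu), iron and oxidative stress 2 higher of 27 (Steap4, Gsta3) and 0 lower, and the insulin-like growth factor system 1 higher (Htra1) and 1 lower (Igfbp3) of 10. C4b, a complement component, had 141 and 26.5 CPM in members, against 264 and 157 CPM in the other fibroblasts. Of 9 tested markers of other fibroblast sets 5 fell (Wif1, Thbs4, Comp, Inmt, Adamtsl2) and 0 rose.

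The gene behind the sort was examined next. Cdkn2a, which encodes p16, had a UMI in 0 of 9 Heart1 members and 0 of 191 Heart2 members, against 36.5% (72 of 197) and 0.936% (7 of 748) of the other fibroblasts. At a limit of 3 counts, 0 allows at most 33.3% of the 9 cells and 1.57% of the 191 to hold a UMI, which does not limit the share of cells expressing the gene. The share in Heart2 was low in all fibroblasts, so no difference was detectable there. In macrophage-gated cells of these libraries 43.2% and 27.1% had a UMI. In Heart1 the within-library set had a UMI in 6 of 36 cells (16.7%, exact 95% interval 6.37 to 32.8%), against 66 of 170 (38.8%, 31.5 to 46.6%). Its summed level was 88.6 CPM, against 81.4 CPM, so the share and the level do not go the same way and no order is read from them.

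Cdkn1a, which encodes the inhibitor p21, was seen in 22.2% and 19.9% of members, against 49.7% and 31.6% of the other fibroblasts. With every cell thinned to 3000 UMIs the shares were 11.1% and 12.04% in members, against 28.4% and 19.5%. limma gave a log2 difference of -0.62 ± 0.17 for the within-library set (adjusted p = 0.0936), which did not pass. It did pass with a pseudocount of 20 CPM (-0.56) and without fibroblasts holding a UMI of a macrophage gate gene (-1.01). It also passed with 300 members (-1.24) and with scores from thinned cells (-1.75), sets chosen over both libraries rather than by equal share. Cdkn2b was seen in 11.1% and 3.14% of members, against 31.5% and 6.82%, and did not pass either (-0.94 ± 0.28, adjusted p = 0.149). Of 22 tested senescence and cell cycle inhibitor genes 0 rose and 0 fell. In that list 0 were also called with median-ratio scaling, a pseudocount of 1 CPM or the 50 CPM filter. The same was so without cells with Wif1, Thbs4 or Comp.

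**Figure D4:**
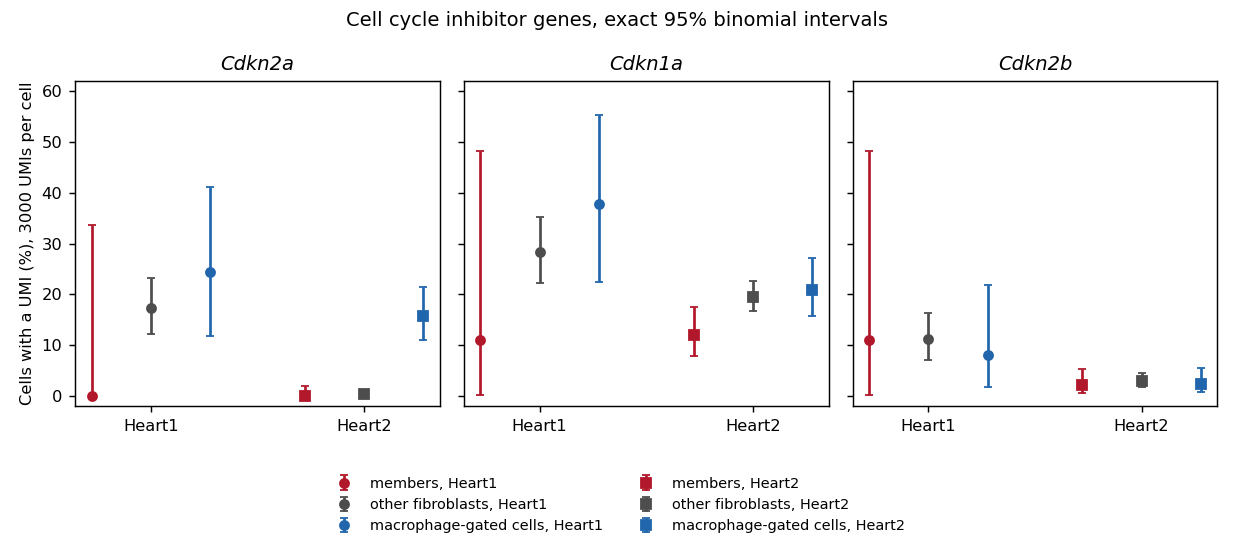
Share of cells with a UMI of Cdkn2a, Cdkn1a or Cdkn2b after thinning every cell to 3000 UMIs, in members, other fibroblasts and macrophage-gated cells, with exact 95% binomial intervals. The intervals of the 9 Heart1 members are wide, up to 33.6% for Cdkn2a, and Cdkn2a is at 0 in the members of both libraries.

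The differences were graded along the score. Heart2 fibroblasts were ranked from low to high into 4 groups of 187 other fibroblasts and then 96 and 95 members. Col4a1 was at 307, 384, 521, 648, 852 and 1054 CPM along these 6 groups, and Smoc2 at 689, 1163, 1640, 2107, 2514 and 2896 CPM. Ifitm1 was at 0.507, 12.6, 21.1, 72.3, 132 and 166 CPM. These genes, which did not enter the score, went up step by step with no break at the border of the set. Postn was at 778, 343, 122, 28.2, 19.0 and 19.7 CPM, and Thbs4 at 270, 237, 0.587, 0, 0 and 0 CPM, so these genes were near their lowest level before the border was reached. Myoc was at 286, 306, 157, 123.5, 26.6 and 23.7 CPM, so it was still above the members' level just outside the border. Pi16 was at 2348, 1943, 1368, 1113, 1114 and 849 CPM. The median depth of the groups was 9645, 9163, 9068, 8313, 8212.5 and 7701 UMIs, so depth went down as the score went up, and its part in the gradient was not tested.

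**Figure D5:**
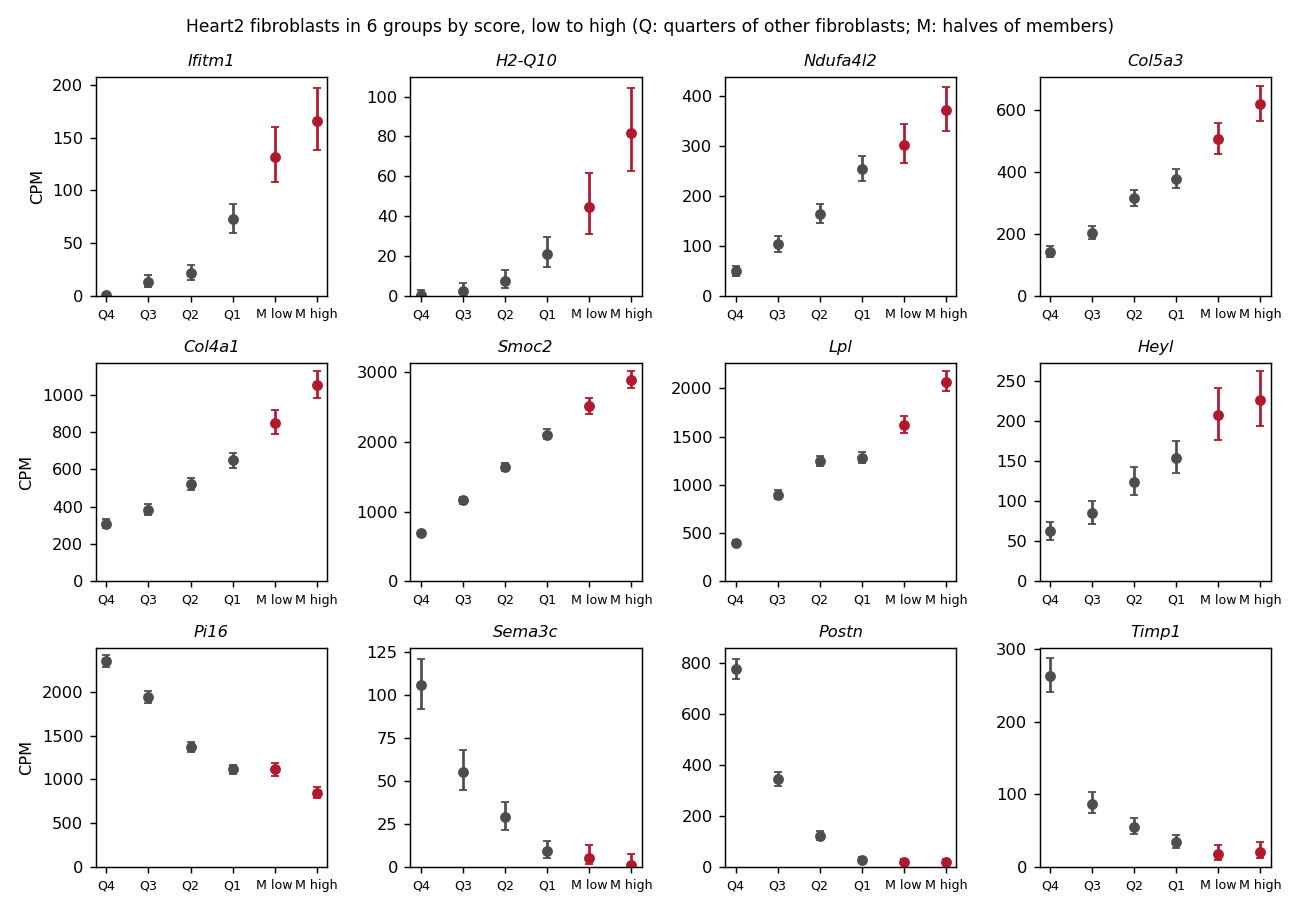
Summed level (CPM) of 12 genes in 6 groups of Heart2 fibroblasts ordered by score, from the lowest other fibroblasts (Q4, grey) to the highest members (M high, red), with exact 95% Poisson intervals. The upper 8 genes go up step by step toward the members, Smoc2 to 2896 CPM, while Pi16, Sema3c, Postn and Timp1 are lower in members than in the lowest group.

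Members with and without Ccl11 were set side by side in Heart2, where 102 had a UMI and 89 had none. Hsd11b1 was at 1344 CPM in those with Ccl11 and 1365 CPM in those without. Col4a1 was at 878 CPM in those with Ccl11 (exact 95% Poisson interval 815 to 944) and 1035 CPM in those without (962 to 1112). These intervals cover counting error in 1 library only, and members without Ccl11 had to reach the score through the other 5 genes, so no difference is read from them. Smoc2 was at 2610 and 2807 CPM in members with and without Ccl11, and Ifitm1 at 163 and 132 CPM. Blnk was at 130 CPM in members with Ccl11 and 189 CPM in those without, Kcnip1 at 49.45 and 88.9 CPM and Vtn at 71.2 and 33.3 CPM, which follows in part from a score that adds the 6 genes. Of 3460 genes with a mean of at least 50 CPM in thinned cells, 25 were at least 2-fold higher and 40 at least 2-fold lower in members with Ccl11. Both sets come from 1 library, so there is no replicate check.

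Members were last compared with 2 other sets of fibroblasts, each chosen by its own marker genes. The Pi16 and Dpp4 fibroblasts were the 200 cells with the highest mean z-score of those genes (35 in Heart1 and 165 in Heart2), of which 14 were also members and were left out. Members had 368 genes at least 1.5-fold higher in both libraries (4.35%) and 272 at least 1.5-fold lower (3.21%) of 8468. In the within-library sets limma called 276 higher (3.24%) and 305 lower (3.58%) of 8513, with its spread taken wholly from the pool of genes, and 28 and 57 without the library block. Notch3 had 23.5 and 51.8 CPM in members, against 0 and 1.30 CPM in the Pi16 and Dpp4 set. Tmem176a, a membrane protein, had 246 and 221 CPM, against 60.8 and 22.1 CPM, and H2-Q10 46.9 and 64.4 CPM, against 0 and 0 CPM. Ifitm1 and Cox4i2 completed the 5 largest, and Tmem100, Sema3c, Prg4, Cd248 and Mustn1 were the 5 smallest. In Heart1 members Notch3 rests on 2 UMIs in 1 cell and Cox4i2 on 15 UMIs in 1 cell. No direction is read for these genes in Heart1. Cd248, a fibroblast surface glycoprotein, had 82.1 and 9.80 CPM in members, against 241 and 365 CPM.

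The Inmt, Osr1 and Rspo1 fibroblasts were chosen likewise (20 in Heart1 and 180 in Heart2, 19 shared with the members and left out). Members had 326 genes at least 1.5-fold higher in both libraries (3.83%) and 216 at least 1.5-fold lower (2.54%) of 8514. limma called 38 higher (0.443%) and 60 lower (0.7%) of 8576 in the within-library sets, and 0 and 3 without the block. Ifitm1 had 106 and 146 CPM in members, against 11.9 and 8.26 CPM in the Inmt set (limma log2 difference 3.72 ± 0.34, adjusted p = 0.00102). Ndufa4l2 had 540 and 350 CPM, against 98.7 and 77.8 CPM, and Plau 46.9 and 47.6 CPM, against 3.95 and 7.58 CPM. Gm13889 was also among the 5 largest. Col4a1, Col5a3 and Smoc2 were called higher too. H2-Q10 had 46.9 and 66.1 CPM in members, against 0 and 4.13 CPM, but limma did not call it (adjusted p = 0.118). Htra1, with 399 and 694 CPM, against 253 and 284 CPM, was not called by limma either (adjusted p = 0.155). Wisp2, a matricellular protein, had 0 and 9.24 CPM in members, against 371 and 241 CPM, and C4b had 141 and 26.3 CPM, against 486 and 386 CPM. Tmem100, Mustn1 and Prg4 completed the 5 smallest. Postn had 317 and 21.3 CPM in members, against 193.5 and 104 CPM in the Inmt set. It was thus higher in the Heart1 members, although limma called it lower in the within-library sets. Thbs4 had 0 and 0 CPM, against 35.5 and 0 CPM, and limma did not call it (adjusted p = 0.346). Comp was called lower, with 0 and 0 CPM in members, against 359 and 44.1 CPM. Both comparisons use the same members and are not independent.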

How the data were processed

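Heart cells of 2 samples were profiled with the 10x 3' v3 kit; mm10 and Cell Ranger 3.0.2 are listed in the submitters' processing notes. The values were deposited as a natural log of 1 plus UMIs per 10000, read from the values, since each cell sums to 10000. All 4459440 values above 0 were whole UMIs within 1e-06, from which counts were recovered. The sources used here do not give the filters, the normalizing tool or which library is which sample. They also do not say whether the libraries are separate animals. With library as a block, the p-values measure how a difference varies between these libraries, with a spread mostly pooled over genes. They may not cover spread between animals.

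The members and lists were chosen with earlier results of these data known. The planned test needed 10 members per library, and Heart1 has 9, so the members are given as values. limma 3.58.1 (R 4.3.3) was run on log2(CPM + 5) of the 4 sums of a set of equal share per library, with library as a block, a trend of variance on level, and Benjamini-Hochberg adjusted p-values. Libraries pair the sums, since members and other fibroblasts share one. Named genes are called by limma, at least 1.5-fold apart in both libraries of the members and seen in 10% of the cells of the higher set: the 12 largest and 8 smallest and up to 3 per list. A gene that the rule picks is not reported here. Ordering by the Heart2 difference and taking the call from the within-library set were settled after the cell counts were known. Scrublet predicted 4 doublets, which were kept. Code was tested on simulated data. The alternatives are other pseudocounts, filters, scalings, depths, set sizes and cells left out.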

Additional observations from a re-analysis of the deposited data

How the results depend on the processing

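Counts are given as higher, then lower. For members against other fibroblasts (158 and 204 genes), a pseudocount of 20 CPM gave 74 and 115, a 50 CPM filter 67 and 77, the mean of log values 25 and 8, thinning 265 higher, no filter 369 lower, and the added omission of cells with Wif1, Thbs4 or Comp 135 lower. Against the Pi16 and Dpp4 set (368 and 272), the 50 CPM filter gave 118 and 125, thinning 591 and 451, log means 32 and 51, a pseudocount of 20 CPM 166 higher, and no filter and 100 members 446 and 419 lower. Against the Inmt set (326 and 216), a pseudocount of 20 CPM gave 139 and 125, the 50 CPM filter 117 and 68, thinning 568 and 392, log means 31 and 18, 100 members 588 and 414, no filter 446 lower and median-ratio scaling 203 higher. With 1 library left out, the fold is asked of 1 library alone: 342 to 1666 and 346 to 2118 against other fibroblasts, 904 to 1856 and 517 to 2185 against the Pi16 and Dpp4 set, 935 to 1938 and 463 to 2169 against the Inmt set. The high ends are the 9 Heart1 members alone.

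The limma counts of the within-library set (89 and 138) were rerun under alternatives chosen after seeing the data. Without the replicate block they were 0 and 0, with median-ratio scaling 5 and 40, with a pseudocount of 1 CPM 58 and 90, with 20 CPM 154 and 216, and with the 50 CPM filter 51 and 53. They were 141 higher without fibroblasts holding a macrophage gate UMI, and 91 lower without cells with Wif1, Thbs4 or Comp. The causes were not tested. The share of members is set by their number: 100 members gave 0.971% in Heart1 and 10.4% in Heart2, and 300 gave 30.7% in Heart2. No gene picked by the naming rule changed sign under the alternatives run. Of all called genes, 221 of 222 kept their sign with thinned sums, 225 of 226 with 300 members and 224 of 225 with scores from thinned cells. No block fit was run on the members themselves, which have no test, and leaving out a library leaves limma no residual degrees of freedom. The 9 Heart1 members limit every statement that needs both libraries.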
